A study of Mus musculus with 9 samples.

Results

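Acta2, Tagln, Myl9, Cnn2, S100a4, Sparc, Ctgf, Cyr61, Tnc and Emilin1, a set of contractile and matricellular genes, were followed by gene symbol through 2 tables of normalized counts from mouse Lewis lung carcinoma cells. All 10 were listed in both tables, out of 19305 genes listed in either (18816 in the table with Th9, 18511 in the table with Th17). The cells were LLC1, a mouse lung carcinoma line, kept for 24 h in direct contact with T cells generated in culture, at 1 T cell per LLC1 cell. There were 3 groups of 3 libraries: LLC1 cells kept with Th9 cells, LLC1 cells kept with Th17 cells, and LLC1 cells kept with Th0 cells, against which both others were compared. Th0, Th9 and Th17 are the labels' names for the T cell subsets. In all groups CD4-positive cells were sorted away before total RNA was isolated, so what was sequenced is the RNA of cells left after that sort. LLC1 is 1 cell line, no group without T cells was analysed here, and nothing in the labels tells whether replicate libraries came from separate cultures, so a p-value here covers only the spread among the libraries. The series' title gives its question as epithelial-mesenchymal transition of lung cancer cells, in which contractile and matrix genes are commonly read as signs of a mesenchymal state.

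Contractile genes such as Acta2 and Tagln are switched on in smooth muscle cells and myofibroblasts by serum response factor (SRF), which binds a DNA element called the CArG box together with actin-sensing cofactors of the MRTF family. Matricellular proteins are secreted proteins that sit in the extracellular matrix and change how cells attach and signal, without forming its main fibres. Ctgf and Cyr61, 2 matricellular genes, are textbook targets of the YAP and TAZ coactivators, which act through TEAD proteins. S100a4 is a small calcium-binding protein that acts on non-muscle myosin.

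The promoters of Acta2, Cnn2 and Cyr61 are shown because they hold the sequence elements named above in front of genes that fell with Th9. RefSeq's table of start sites for GRCm38.p6 had 8 of the 10 genes, and the 250 bases before each start site were searched. Capitals mark CArG boxes (2 cytosines, 6 bases that are each A or T, 2 guanines), CArG boxes with 1 G or C among those 6 bases, and the TEAD element GGAATG, which reads CATTCC on the other strand. All sequences run 5′ to 3′ on the gene's own strand.
Acta2 (chr19:34255374-34255623, minus strand): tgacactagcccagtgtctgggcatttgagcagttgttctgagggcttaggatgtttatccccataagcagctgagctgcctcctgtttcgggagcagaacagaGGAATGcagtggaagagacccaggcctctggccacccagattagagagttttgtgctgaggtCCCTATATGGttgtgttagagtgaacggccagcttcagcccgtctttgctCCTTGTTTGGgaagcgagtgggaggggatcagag
Cnn2 (chr10:79988350-79988599, plus strand): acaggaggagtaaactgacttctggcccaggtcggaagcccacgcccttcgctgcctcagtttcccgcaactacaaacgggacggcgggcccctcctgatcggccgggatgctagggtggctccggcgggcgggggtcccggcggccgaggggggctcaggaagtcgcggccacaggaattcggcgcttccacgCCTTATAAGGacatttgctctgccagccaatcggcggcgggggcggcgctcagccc
Cyr61 (Ccn1 in RefSeq; chr3:145649986-145650235, minus strand): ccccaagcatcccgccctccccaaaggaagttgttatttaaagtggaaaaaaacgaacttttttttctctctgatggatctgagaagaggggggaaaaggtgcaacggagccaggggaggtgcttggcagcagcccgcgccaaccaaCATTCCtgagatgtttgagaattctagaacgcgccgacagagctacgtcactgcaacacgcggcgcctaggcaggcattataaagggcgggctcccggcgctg
The Cnn2 window held 1 full CArG box, CCTTATAAGG, beginning at position -56 from the start site. The Acta2 window held no full CArG box and 2 with a single G or C in the core, CCCTATATGG at -84 and CCTTGTTTGG at -34, besides GGAATG at -146. The Cyr61 window held CATTCC at -103 and no CArG box of either form. Of the other windows, that of Myl9 held a full CArG box at -161 and 1 with a single G or C at -99, and those of S100a4, Sparc, Tnc and Emilin1 held none of these elements. The Emilin1 window (chr5:30913536-30913785, plus strand) lay inside the gene as listed, which starts at 30913402. The bases before that listed start were not searched. Among the 32536 distinct windows of the table, 1.48% held a full CArG box, 7.23% held 1 with a single G or C and 12.6% held the TEAD element. A match describes letters in a window and is not a measured binding site.

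Values are normalized counts, rounded to whole numbers, that the authors scaled separately in each table, so each gene was compared with the Th0 columns of its own table. A log2 fold change is the difference between 2 group means of log2(value + 1), tested with limma over all genes with a mean of at least 10, and a gene is called at a Benjamini-Hochberg adjusted p under 0.05. Both comparisons with Th0 use the same 3 Th0 libraries. Approximate depth, recovered from the steps between the rounded values, was 13536748 to 14622085 reads in the Th9 libraries, 13779550 to 17504522 in the Th17 libraries and 12719541 to 15337745 in the Th0 libraries. Th0 replicate 1 stood apart: 31.1% of its values fell on mt-Rnr1, mt-Rnr2 and Gm26917, against 14.9% to 21.8% in the other 8 libraries. Counts of T cell marker genes differed between groups. The 24 T cell markers summed to 1642 to 2365 in the Th9 libraries, against 102 to 245 in the Th0 libraries. Of the 20 tested, 18 rose, where 13.4% of all genes tested were called higher. Many of the 20, such as Cd3g (mean 317 with Th9, 5 with Th0), passed the filter on low values only through their Th9 values. For those the direction was largely set by the filter, so the count is no separate evidence. Cd6 and Trbc1 were at 0 in every Th0 library. Endothelial markers, 3 of 6 listed, summed to 36 to 54 with Th9 and to 6 to 19 with Th0. Most of each sum was Pecam1, at 42, 28 and 33 with Th9, against 13, 5 and 11 with Th0. Pecam1, the 1 tested, rose (1.80, adjusted p = 0.0037). Its mean of 9.67 with Th0 lay under the filter, so it too passed through its Th9 values. B cell markers (42 to 54 with Th9, 41 to 93 with Th0) and myeloid markers (213 to 269 with Th9, 171 to 325 with Th0) overlapped between the groups in their sums. Of the 4 myeloid markers tested, Lyz2 fell, with 0, 2 and 1 with Th9, against 33, 15 and 11 with Th0 (-3.36, adjusted p = 0.00163). Cd14 rose, with 67, 63 and 58 with Th9, against 41, 37 and 26 with Th0 (0.86, adjusted p = 0.0135), a call lost without Th0 replicate 3 (0.0537) or Th9 replicate 1 (0.0716) or 2 (0.0563). In the table with Th17, 14 of the 24 were listed, and they summed to 76 to 97 in the Th17 libraries, against 100 to 231 in the Th0 libraries. Of the epithelial genes looked for, Cdh1 and Epcam were not listed. Of the 3 tested, Krt8 (956 to 1255 with Th9, 1688 to 2470 with Th0) and Tjp1 fell, where 11.9% of all genes tested were called lower. The call of Tjp1 was lost under 6 alternatives. Krt18, at 3031 to 3452 with Th9 and at 3215 to 4636 with Th0, did not pass.

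Per kb of exon, the 10 genes covered a range of levels from near 0 to about 1000. On a scale common to all 9 libraries, with exon lengths from GENCODE M21, Sparc averaged 734 ± 28 per kb with Th9, 1150 ± 27.6 with Th17 and 1046 ± 152.7 with Th0 (SD, n = 3 libraries each, as below). Cnn2 averaged 706 ± 8.69 per kb with Th9, 1002 ± 39.1 with Th17 and 926 ± 138 with Th0. Cyr61 averaged 389 ± 132 per kb with Th9, 1091 ± 99.9 with Th17 and 797 ± 344 with Th0. These were the highest levels in each group, and with Th0 their order lay within their spread. Emilin1 followed at 338 ± 22.2 per kb with Th0, then S100a4 at 213 ± 16.8 and Acta2 at 58.9 ± 7.83, each below the one before it by more than their SDs. The lowest levels, all below 7 per kb with Th0, were those of Tagln, Myl9, Tnc and Ctgf, and the values of Tagln (6.78 ± 4.96), Myl9 (3.12 ± 1.77), Tnc (2.12 ± 0.484) and Ctgf (1.61 ± 0.868) overlapped within their spread.

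Contact with Th9 cells went with lower levels of most of these genes. Of the 10, 8 passed the filter on low values, and 6 of those 8 fell: Acta2, Cnn2, S100a4, Sparc, Cyr61 and Emilin1. No member passed the test in the upward direction (0 of 8 with limma, and 1, Tnc, at an unadjusted p under 0.05). Over all 14475 genes tested, 11.9% were called lower and 13.4% higher. With every library scaled to the same total, 3 members were called lower (Acta2, S100a4 and Emilin1), and over all genes 2252 were called higher and 794 lower, in place of 1937 higher and 1716 lower. The median log2 fold change was -0.73 over the 8 members and -0.01 over all genes tested. In 5 of the 8 every Th9 library lay below every Th0 library, and in 1 every Th9 library lay above, against 19.2% and 21.4% of all genes tested. Without Th0 replicate 1 the same 6 genes were called lower and Tnc was called higher. As given above, T cell markers were higher in these Th9 libraries, and their part in these differences was not tested. In bulk RNA, fewer cells of a type and less RNA per cell cannot be told apart.

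**Figure D1:**
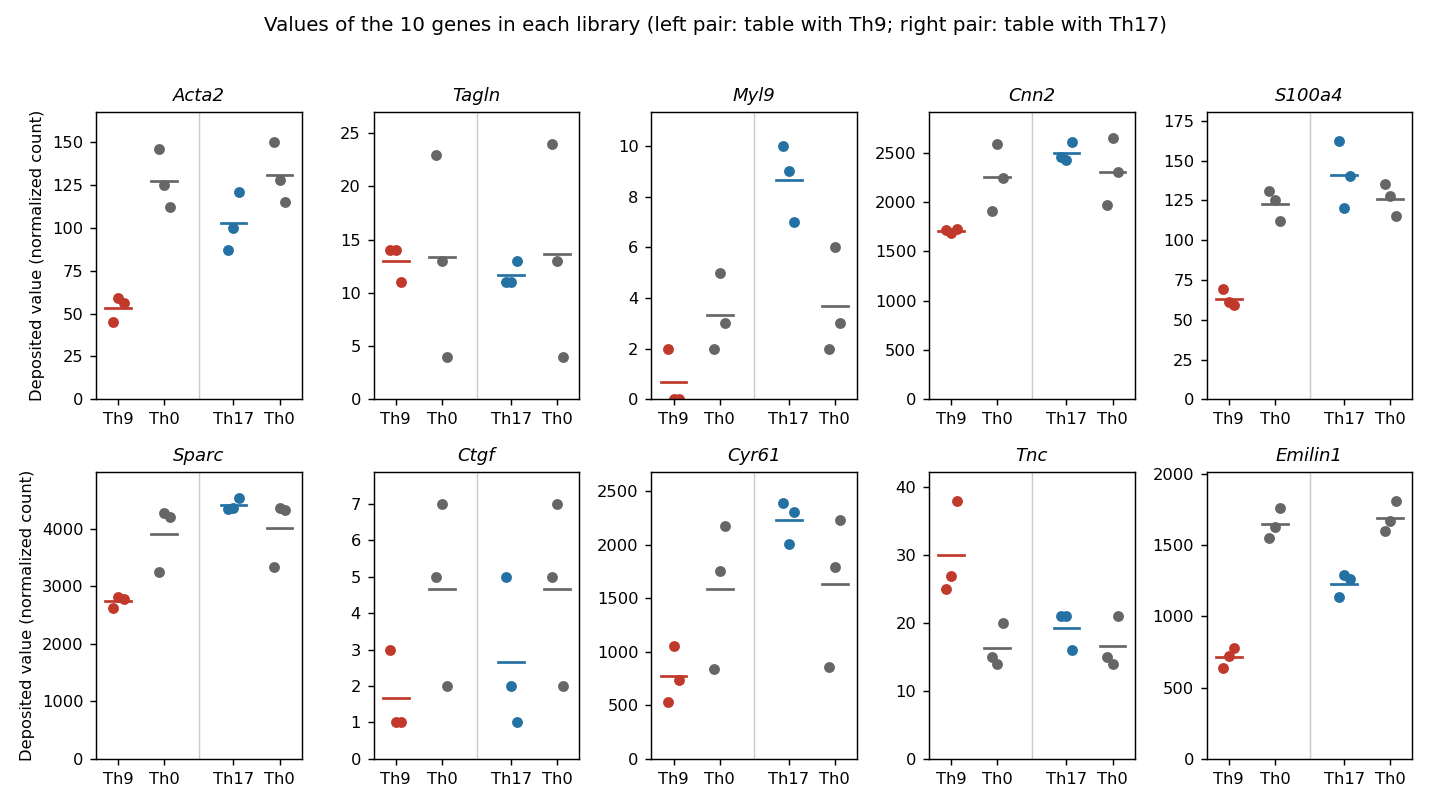
Deposited value (normalized count, linear axis from 0) of each of the 10 genes in every library, with the Th9 and Th0 libraries of 1 table on the left of each panel and the Th17 and Th0 libraries of the other on the right. Points are libraries and bars are means of 3. For Acta2, Emilin1, S100a4, Sparc and Cnn2 the Th9 points lie below all Th0 points, whereas with Th17 only Emilin1 and Myl9 show no overlap with Th0.

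Among the contractile genes that passed the filter on low values, Acta2 had the largest fold change. Acta2 (smooth muscle alpha actin; ENSMUSG00000035783, GRCm38 chromosome 19, positions 34241090 to 34255336, minus strand) was at 45, 59 and 56 in the Th9 libraries, against 146, 125 and 112 in the Th0 libraries. The groups did not overlap, and each Th9 library was below 60. Acta2 had a log2 fold change of -1.24 (SE 0.17, limma adjusted p = 0.000282), a level 42.2% of that with Th0, and it was called with each library left out (adjusted p up to 0.00251). Cnn2, a calponin that binds actin in non-muscle as well as smooth muscle cells (chromosome 10, positions 79988584 to 79996062, plus strand), was at 1714, 1688 and 1729 with Th9, against 1913, 2594 and 2250 with Th0. The groups did not overlap, but the lowest Th0 value, that of replicate 1, came close to the Th9 values. The log2 fold change was -0.39 (SE 0.10, adjusted p = 0.0177). Cnn2 no longer passed when Th0 replicate 2 or 3 or any Th9 library was left out (adjusted p 0.0533 to 0.0764), nor when every library was scaled to the same total (0.189).

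Tagln and Myl9 were barely detected in these cells. Tagln (transgelin, an actin-binding protein of smooth muscle; chromosome 9, positions 45929628 to 45936058, minus strand) was at 14, 14 and 11 with Th9, against 23, 13 and 4 with Th0, where its highest value was that of replicate 1. Its log2 fold change was 0.23 with a 95% interval of -0.87 to 1.33 (adjusted p = 0.779), and leaving out Th0 replicate 3 turned it to -0.40 (adjusted p = 0.538). Tagln overlaps Pcsk7 on the opposite strand, which averaged 184 in the same table, and the sources used here do not tell if reads were assigned by strand. Myl9, the regulatory light chain of smooth muscle myosin (chromosome 2, positions 156775420 to 156781658, plus strand), was at 2, 0 and 0 with Th9, against 2, 5 and 3 with Th0. Those values stand for 0 to 5 reads per library, so it was below the filter. Without the filter its log2 fold change was -1.53 (95% interval -2.99 to -0.07, adjusted p = 0.134).

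S100a4 (chromosome 3, positions 90603771 to 90606045, plus strand) was at 69, 61 and 59 with Th9, against 131, 125 and 112 with Th0. All Th9 values lay well below all Th0 values, in every library. S100a4 overlaps Gm42674, a protein-coding gene on the same strand that was not listed in the table with Th9. How reads in that overlap were counted was not tested. On the log2 scale the fold change was -0.95 (SE 0.15, adjusted p = 0.000761), a level 51.8% of that with Th0, called with each library left out (adjusted p up to 0.00606).

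Among the matricellular genes, Emilin1 showed the clearest difference. Emilin1 (chromosome 5, positions 30913402 to 30921277, plus strand), an elastic fibre glycoprotein known in mice to restrain processing of the TGF-beta precursor, was at 640, 718 and 775 with Th9, against 1551, 1629 and 1760 with Th0. No Th9 library reached 800 and no Th0 library was below 1500. Its log2 fold change was -1.21 (SE 0.09, adjusted p = 3.02e-06), a level 43.1% of that with Th0. It was called with each library left out (adjusted p up to 9.45e-05) and with every library scaled to the same total (-1.10, adjusted p = 2.08e-05).

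Sparc and Cyr61 fell too, with less even Th0 libraries. Sparc (osteonectin, a collagen-binding protein; chromosome 11, positions 55394500 to 55420080, minus strand) was at 2622, 2809 and 2789 with Th9, against 3252, 4277 and 4214 with Th0. The groups did not overlap, and Th0 replicate 1 was the lowest Th0 library. The log2 fold change was -0.50 (SE 0.11, adjusted p = 0.00502), and it lost its call only with every library scaled to the same total (adjusted p = 0.0784). Cyr61 (chromosome 3, positions 145646976 to 145649981, minus strand), a cysteine-rich protein that binds integrins, was at 534, 1056 and 734 with Th9, against 838, 1755 and 2177 with Th0. The groups overlapped, since Th9 replicate 2 was above Th0 replicate 1. The log2 fold change was -0.98 (SE 0.30, adjusted p = 0.03), and -1.39 without Th0 replicate 1 (adjusted p = 5.71e-06). Cyr61 lost its call without Th0 replicate 2 (0.102) or 3 (0.119), without Th9 replicate 1 (0.14) or 3 (0.0969), and with equal library totals (0.0503).

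Tnc and Ctgf were the other 2 matricellular genes. Tnc (tenascin C, an anti-adhesive glycoprotein; chromosome 4, positions 63959785 to 64047015, minus strand) was at 25, 27 and 38 with Th9, against 15, 14 and 20 with Th0. The groups did not overlap, and Tnc was the 1 member whose Th9 values all lay above those with Th0. The log2 fold change was 0.83 (SE 0.29), with an adjusted p of 0.0522 that did not pass. It passed without Th0 replicate 1 (0.0482), with a pseudocount of 5 (0.0487), with the replicate block (0.0441) and with both total scalings (0.0335 and 0.0462). Ctgf (chromosome 10, positions 24595442 to 24598683, plus strand), a connective tissue growth factor and paralog of Cyr61, was at 3, 1 and 1 with Th9, against 5, 7 and 2 with Th0. At 1 to 8 reads per library it was below the filter, and without the filter its log2 fold change was -1.06 (95% interval -2.34 to 0.23, adjusted p = 0.242).

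**Figure D2:**
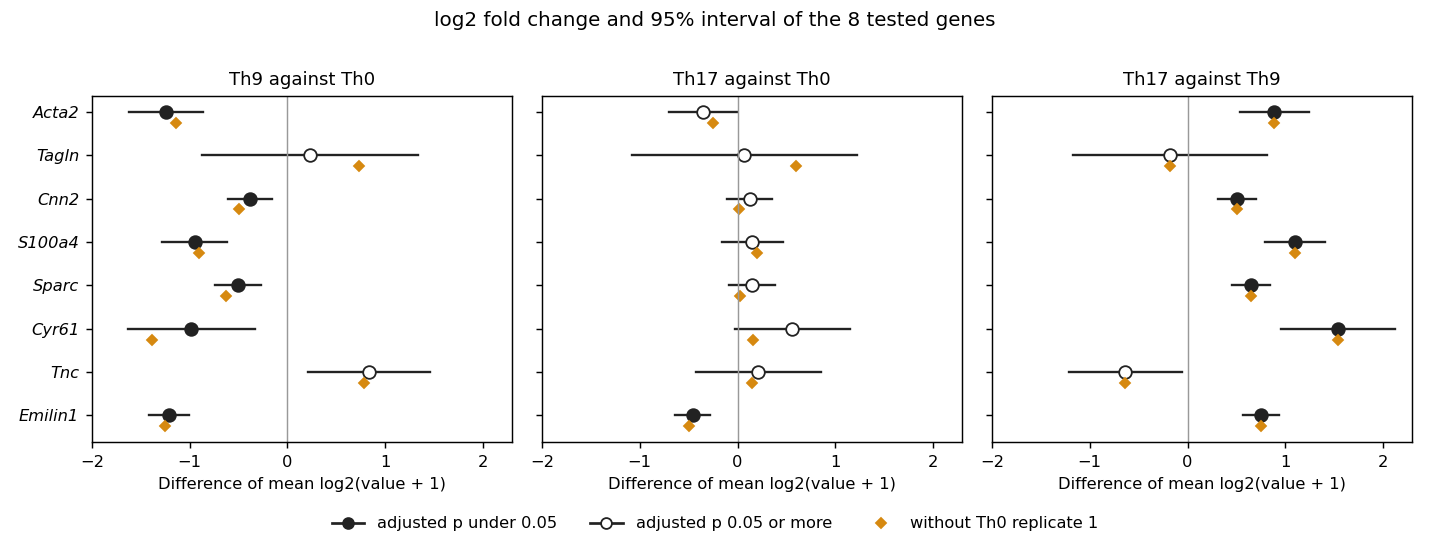
Difference of mean log2(value + 1) with its 95% interval for the 8 tested genes, in Th9 against Th0, Th17 against Th0 and Th17 against Th9 (panels from left to right). Filled circles have an adjusted p under 0.05, and diamonds give the value without Th0 replicate 1. Filled circles stand for 6 genes on the left, for Emilin1 alone in the middle and for 6 genes on the right.

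Contact with Th17 cells left most of these genes at levels that overlapped those with Th0. Of the 8 tested, 1 fell (Emilin1) and none rose by limma's test at the adjusted threshold, where over all 14342 genes tested 0.39% were called lower and 1.19% higher (1.58% in all). Acta2 was the 1 other member at an unadjusted p under 0.05. The median log2 fold change was 0.14 over the 8 members and -0.00 over all genes tested. Emilin1 was at 1132, 1292 and 1263 with Th17, against 1595, 1665 and 1807 with Th0, and the groups did not overlap, as in 10.6% of all genes tested in that direction. Its log2 fold change was -0.46 (SE 0.08, adjusted p = 0.0215), a level 72.8% of that with Th0. That call was kept without Th0 replicate 1 (-0.50, adjusted p = 0.00023) or 2 (-0.47), and lost without Th0 replicate 3 (adjusted p = 0.111), without Th17 replicate 1 (0.158), 2 (0.0919) or 3 (0.129) and with equal library totals (0.144). T cell markers were not higher in the Th17 libraries, where they summed to 76 to 97.

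The other members did not pass the test with Th17. Acta2 was at 87, 100 and 121 with Th17, against 150, 128 and 115 with Th0, so that Th17 replicate 3 lay inside the Th0 range. Its log2 fold change was -0.35 (95% interval -0.70 to -0.00, adjusted p = 0.271). Cyr61 was at 2392, 2004 and 2306 with Th17, against 862, 1793 and 2234 with Th0. The low value of Th0 replicate 1 set much of that difference: the log2 fold change was 0.56 over all libraries (95% interval -0.03 to 1.15, adjusted p = 0.298) and 0.15 without that library. Cnn2 (0.12, interval -0.10 to 0.35), Sparc (0.15, interval -0.08 to 0.38) and S100a4 (0.15, interval -0.16 to 0.46) had intervals that included 0. Tnc (0.21, interval -0.43 to 0.85) and Tagln (0.07, interval -1.08 to 1.22), at 11 to 21 in the Th17 libraries, had wider ones. Myl9 was at 10, 9 and 7 with Th17, against 2, 6 and 3 with Th0, with no overlap. It was below the filter, and without the filter its log2 fold change was 1.13 (95% interval 0.10 to 2.16, adjusted p = 0.27). Ctgf was at 5, 2 and 1 with Th17, against 5, 7 and 2 with Th0.

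The difference between Th17 and Th9 was tested itself, on all 9 libraries brought to 1 scale. The same 6 genes that fell with Th9 were higher with Th17 than with Th9, 6 of 8 tested, where 9.77% of 14400 genes were called higher and 20.8% in either direction. Cyr61 differed by 1.54 on the log2 scale (SE 0.27, adjusted p = 0.000879), S100a4 by 1.10 (SE 0.14, adjusted p = 5.12e-05) and Acta2 by 0.89 (SE 0.17, adjusted p = 0.00135). Emilin1 differed by 0.75 (SE 0.09, adjusted p = 1.43e-05), Sparc by 0.65 (SE 0.09, adjusted p = 0.000136) and Cnn2 by 0.50 (SE 0.09, adjusted p = 0.000968). In each of the 6, all Th17 libraries were above all Th9 libraries, as in 22.5% of all genes tested, and each was called under every alternative run. Tnc was lower with Th17 by -0.64 (adjusted p = 0.119) and Tagln by -0.18 (adjusted p = 0.834), and neither passed. Myl9, untested for its low values, was called without the filter (2.71, adjusted p = 0.00342), from 10, 9 and 7 with Th17 in its table and 2, 0 and 0 with Th9 in the other. T cell markers were lower with Th17 than with Th9, 12 of 14 tested, and their part in these differences was not tested.

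Th0 replicate 1 differed from its fellow libraries in a direction that depended on the gene. It held the lowest Th0 value of Cyr61, Cnn2, Sparc, Emilin1 and Myl9, and the highest of Acta2, S100a4 and Tagln. The coefficient of variation among Th0 libraries of the table with Th9 was 43.1% for Cyr61 and 71.3% for Tagln, against 6.41% for Emilin1 and 7.92% for S100a4. Within Th9 it was 34.0% for Cyr61, 13.8% for Acta2 and 1.21% for Cnn2.

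Acta2, Cnn2, Myl9 and S100a4 were set beside relatives of their families, since the non-muscle forms carry most of the cytoskeleton in cells other than muscle. Per kb of exon, Acta2 stood at 24.6 with Th9 and 58.9 with Th0, far below the cytoplasmic actin gene Actb, at 14353 ± 543 with Th9 and 14389 ± 2203 with Th0. For Actb the log2 fold change was 0.00, which did not pass (adjusted p = 0.99). Among the calponins, Cnn2 and Cnn3 (524 ± 28.6 per kb with Th9, 686 ± 68.6 with Th0) were the abundant forms, and Cnn1, the smooth muscle form, averaged 1.61 ± 0.567 with Th9 and 3.72 ± 1.49 with Th0. Cnn3 fell in Th9 against Th0 (-0.39, adjusted p = 0.0091). Myl12a, a non-muscle regulatory light chain, averaged 783 ± 47.4 per kb with Th9 and 844 ± 108 with Th0, and Myl9 averaged 0.582 ± 1.01 and 3.12 ± 1.77. S100a4 (109 ± 9.11 per kb with Th9) was far below S100a6 (3371 ± 179), which did not pass (-0.25, adjusted p = 0.13). Reads can be shared between near-identical family members. Of the 6 genes taken as defining for smooth muscle, Myocd was not listed in either table, and the listed ones summed to 21 to 31 with Th9 and to 32 to 36 with Th0.

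**Figure D3:**
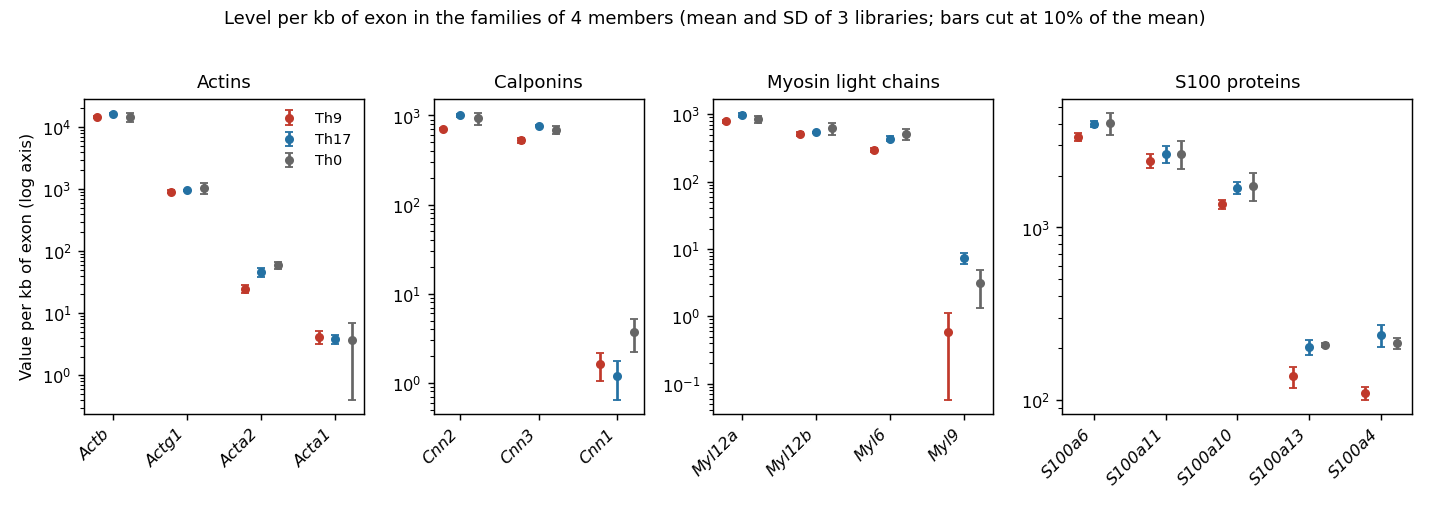
Value per kb of exon (log axis, mean and SD of 3 libraries; lower bars that would pass 0 end at 10% of the mean) for the actins, calponins, myosin light chains and S100 genes, in the Th9, Th17 and Th0 libraries from left to right. Acta2, Myl9 and S100a4 lie far below the most abundant gene of their family in every group, and Cnn2 is the most abundant calponin.

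Among 24 further contractile and cytoskeletal genes with a test, 2 rose and 7 fell in Th9 against Th0, with a median log2 fold change of -0.17. The shares over all genes tested were 13.4% called higher and 11.9% called lower. Mylk, the kinase that activates smooth muscle myosin, was at 331, 323 and 311 with Th9, against 560, 476 and 566 with Th0 (-0.73, adjusted p = 0.000234). Myl6, an essential myosin light chain (-0.79, adjusted p = 0.000648), and Tpm2, a tropomyosin (-0.50, adjusted p = 0.000828), fell as well. The 2 that rose were Pdlim5, a scaffold of actin bundles (0.62, adjusted p = 0.000219), and Smtn, smoothelin (0.55, adjusted p = 0.000361). With Th17 none of 25 tested was called, where 1.58% of all genes tested were, and the median was -0.05.

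Among 23 other matricellular, elastic fibre and proteoglycan genes with a test, 1 rose and 10 fell in Th9 against Th0, with a median of -0.30. Over all genes tested the shares were 13.4% higher and 11.9% lower. Thbs1, thrombospondin 1, was at 150, 167 and 176 with Th9, against 1069, 1341 and 1329 with Th0 (-2.91, SE 0.11, adjusted p = 1.11e-08). Tgfbi, a matrix protein induced by TGF-beta, was at 41, 29 and 40 with Th9, against 116, 154 and 147 with Th0 (-1.90, adjusted p = 2.89e-05). Fbn1, fibrillin 1 of the elastic fibre microfibrils, had -0.72 (adjusted p = 3.94e-05). Spp1, osteopontin, was the gene that rose (0.69, adjusted p = 0.000232). With Th17 none of 23 tested was called (median 0.06), where 1.58% of all genes tested were. Thbs1 was at 1191, 1300 and 1346 with Th17, against 1100, 1370 and 1364 with Th0.

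Calls among the upstream regulators went in both directions. Among 17 SRF, MRTF, YAP and TEAD pathway genes with a test, 3 rose and 3 fell with Th9, with a median of -0.02. Over all genes tested, 13.4% were called higher and 11.9% lower, so these counts alone do not set the regulators apart. Srf was at 861, 860 and 769 with Th9, against 784, 881 and 892 with Th0 (-0.04, adjusted p = 0.792), and its direction turned with both total scalings. Mkl1, an MRTF gene, fell (-0.25, adjusted p = 0.0385), a call lost under 9 alternatives, among them equal library totals (0.434). Yap1 did not pass (0.09, adjusted p = 0.444), and Wwtr1, which encodes TAZ, rose (0.37, adjusted p = 0.00668). Tead1, a TEAD factor (0.36, adjusted p = 0.0227), and Lats1, a kinase that restrains YAP (0.29, adjusted p = 0.0286), rose as well, and Elk1, an SRF cofactor, fell (-0.36, adjusted p = 0.037). Tead1 lost its call when any Th9 library was left out (0.0745 to 0.093), Lats1 in 4 alternatives and Elk1 in 5. Lats2, a kinase like Lats1 and itself a YAP target, fell (-0.44, adjusted p = 0.00342), a call that was lost with equal library totals (0.0741).

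Of 16 YAP and TEAD target genes besides Ctgf and Cyr61, 3 rose and 6 fell in Th9 against Th0, with a median of -0.12. Among all genes tested, 13.4% were called higher and 11.9% lower. Amotl2, an angiomotin that binds YAP, was at 954, 1199 and 1232 with Th9, against 1788, 2270 and 2321 with Th0 (-0.91, adjusted p = 0.000203). Fjx1 (1.42, adjusted p = 0.00123) and the receptor kinase gene Axl (0.44, adjusted p = 0.00277) rose. Of 8 S100 genes, 1 rose and 2 fell, among them S100a13 (-0.61, adjusted p = 0.00945). With Th17 no YAP target and no regulator was called (0 of 16 and 0 of 17), where 1.58% of all genes tested were called. At so small a share, 0 calls in lists of this size tell little. Of 8 S100 genes S100a1 rose (0.59, limma adjusted p = 0.0351). That call was lost without Th0 replicate 3 (0.141), Th17 replicate 1 (0.204), 2 (0.156) or 3 (0.178) and with equal library totals (0.0517).

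**Figure D4:**
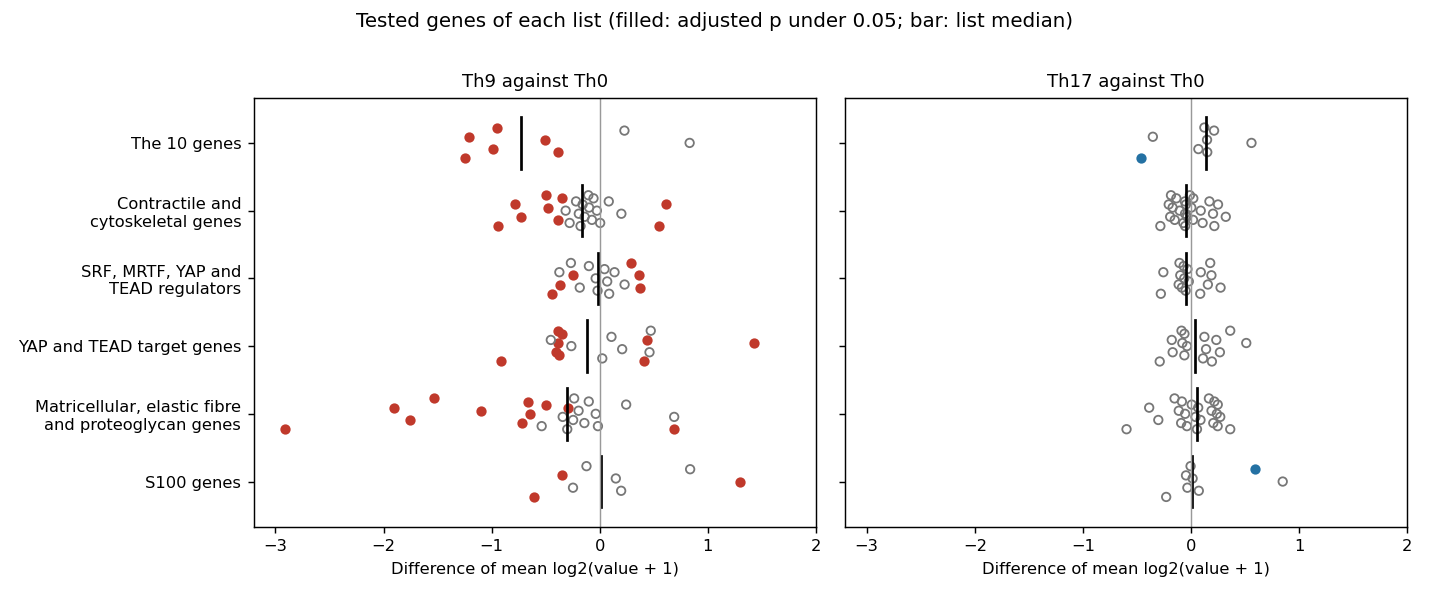
Difference of mean log2(value + 1) for each tested gene of the 10 and of 5 related lists, in Th9 against Th0 (left) and Th17 against Th0 (right). Filled points have an adjusted p under 0.05 and bars are list medians. In the left panel the median of the 8 tested members is -0.73 and that of the matricellular list is -0.30, and in the right panel every list median lies within 0.14 of 0.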

How the data were processed

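RNA of cells left after CD4-positive cells were sorted from the co-cultures was sequenced, with 1 µg of total RNA per library and a stranded kit, per the labels' protocols. The tools named per the submitters' processing notes, without their roles, were DESeq2 1.62, featureCounts 1.4.5-p1 (Subread) and STAR 2.4.0a; the builds named there were mm10 (GRCm38). The authors deposited whole-number scores, rounded normalized counts on a scale set within each table. Each Th0 library's columns in the 2 tables were proportional (ratios 1.02846, 1.02165 and 1.02621), and 3, 6 and 8 of 18022 shared genes departed from the ratio by clearly more than rounding gives. Because these are not raw counts, limma-trend (limma 3.58.1, R 4.3.3) was run on log2(value + 1) in place of a count test, and it was tested on simulated data. Genes with a mean of at least 10 entered, with group as the only term. For Th17 against Th9, all 9 libraries were brought to 1 scale by the median ratio over genes listed in both tables. Gene symbols and positions come from the tables, exon lengths are from GENCODE M21, and promoter windows are from RefSeq. Approximate reads are the value times a size factor recovered from the spacing of the whole numbers, and libraries of a group differed by more than counting error (chi-square per degree of freedom 2.3 to 95.1). Number of columns of values per sample left unused: 0.

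The members, gene lists, tests and alternatives were chosen with earlier results of these data known. Genes named besides the 10 members were drawn, for each list and comparison with Th0, from up to 3 called genes per direction. Those were the ones with the smallest adjusted p, and not all of them are named. Srf, Mkl1, Yap1 and Wwtr1 are named whether called or not. Cd6 and Trbc1, at 0 in every Th0 library, and Cdh1, Epcam and Myocd, not listed, are named outside that rule. So is Krt18, the tested epithelial gene that was not called. Actb, Cnn1, Cnn3, Myl12a and S100a6 were named as relatives of members after their values were seen. Alternatives were 2 other pseudocounts (0.5 and 5), no filter or a mean of at least 50, the same total per library with and without 3 RNA genes, array weights, the replicate number as a block, and leaving out each library.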

Additional observations from a re-analysis of the deposited data

Results flagged for a closer look

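The differences of Th9 and of Th17 from Th0 were unlike each other for 6 genes, by limma's test of Th17 against Th9 itself. On the log2 scale, Th17 minus Th9 was 1.54 for Cyr61, 1.10 for S100a4, 0.89 for Acta2, 0.75 for Emilin1, 0.65 for Sparc and 0.50 for Cnn2, with adjusted p of 0.00135 or less for each. All 3 Th17 libraries were above all 3 Th9 libraries for each of the 6, as in 22.5% of all genes tested. Over all genes tested, 9.77% were called higher with Th17 than with Th9 and 20.8% in either direction.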

How the results depend on the processing

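In Th9 against Th0, Acta2, S100a4 and Emilin1 kept direction and call under all alternatives run, and in Th17 against Th9 all 6 called members did. The number of members called higher with Th9 was 1 in place of 0 with a pseudocount of 5, both total scalings, the replicate block (Tnc in each) and array weights (Tagln, adjusted p = 0.0285), and 0 to 1 leaving out single libraries. The number called lower was 6, and 3 with the same total per library; it was 4 to 6 leaving out single libraries. In Th17 against Th0 the number called lower was 1, 0 with equal totals, and 0 to 1 leaving out single libraries. The same total per library moved the median log2 fold change of all genes in Th9 against Th0 to 0.10, from -0.01.

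Over all genes, Th9 against Th0 gave 1937 higher and 1716 lower, 3302 and 3326 with array weights, 2252 and 794 with equal totals, and 1015 to 2594 higher and 838 to 2742 lower leaving out single libraries. Th17 against Th0 gave 170 higher and 56 lower, 1572 and 1789 with array weights, 119 and 20 with equal totals, 345 and 102 once the 3 RNA genes were left out of the totals, and 14 to 974 higher and 2 to 1378 lower leaving out single libraries, with the highest counts without Th0 replicate 1. Th17 against Th9 gave 1407 higher and 1584 lower, 2490 and 2495 with array weights, 682 and 1685 with equal totals, and 875 to 2242 higher and 1084 to 2301 lower leaving out single libraries. The cause of these shifts was not tested.

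Directions that turned belonged to 2 genes that did not pass in the comparisons as reported. Tagln turned with Th9 without Th0 replicate 3 (-0.40; leaving out single libraries gave -0.40 to 0.73), and with Th17 without Th0 replicate 3 or Th17 replicate 3 (-0.57 to 0.59) or with a pseudocount of 5 (-0.0093). Srf turned in Th9 against Th0 with equal totals (0.0703), with totals without the 3 RNA genes (0.0071) and without Th9 replicate 3 (leaving out single libraries gave -0.0969 to 0.0161), and in Th17 against Th9 without Th9 replicate 1 or 2 (-0.0704 to 0.01). Deviations of same-numbered libraries correlated at 0.111, -0.011 and 0.145 between Th9 and Th0. The values were -0.055, -0.079 and 0.039 between Th17 and Th0, and -0.032, -0.136 and 0.029 between Th17 and Th9. Different-numbered libraries gave -0.135 to 0.04, -0.047 to 0.094 and -0.103 to 0.139 in the same order. Such weak correlations, from 3 libraries per group, cannot tell if the numbers pair the libraries. With the replicate block, 2114 genes were higher and 1962 lower in Th9 against Th0, 186 and 76 in Th17 against Th0, and 1343 and 1525 in Th17 against Th9. Myl9 and Ctgf, at 0 to 11 reads per library, have a value only without the filter, Tagln and Tnc have none with a mean of at least 50, and depth limits what can be said of them.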
